A study of Mus musculus with 16 samples.

Results

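SR proteins and heterogeneous nuclear ribonucleoproteins (hnRNPs) are the main families of RNA-binding proteins that set which splice sites of a pre-mRNA are used. Their genes were followed here through the end of red cell formation, in polychromatic (Poly-E) and orthochromatic (Ortho-E) erythroblasts of mice with and without *Ypel4*. Members were all genes of the deposited counts named *Srsf* with a number, or with names starting *Hnrnp* or *Hnrp*, apart from names marked as pseudogenes, provided that the 16 libraries together held 10 counts or more. This gave 31 genes, 11 *Srsf* genes and 20 *Hnrnp* genes, of 46078 genes listed and of 13318 that passed the same minimum. Of the 33 names that matched, the 2 left out were *Hnrnpa1l2-ps* and a second entry of *Srsf1* on a patch sequence, which had 0 counts.

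Steady-state bone marrow cells were sorted with antibodies against Ter119 and CD44, and RNA from Poly-E and Ortho-E was sequenced from *Ypel4*+/+ and from *Ypel4*-/- animals. Each of the 4 groups held 4 libraries. The *Ypel4*-/- mice were homozygous for a targeted gene trap, the allele tm1a(EUCOMM)Wtsi, which acts in every cell type of the animal, and the labels give all 16 libraries the same line, made on C57BL/6N-A<tm1Brd>. No treatment was given, and the labels give no age. Libraries are named below by population, genotype and the replicate number of their titles.

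An SR protein carries RNA recognition motifs and a tail rich in arginine and serine. Bound to an exon, SR proteins generally help the spliceosome to define it, and they also take part in export and translation of the mRNA. Phosphorylation of the tail by SRPK and CLK kinases moves them between nuclear speckles and transcripts. The hnRNPs coat nascent transcripts, and many of them, the hnRNP A/B group most of all, hold exons out of the mRNA. Many genes of both families control their own level by splicing in an exon that exposes their mRNA to nonsense-mediated decay. Erythroblasts condense and finally expel their nucleus, and alternative splicing of membrane skeleton transcripts is a known part of that program.

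The annotation holds transcripts subject to nonsense-mediated decay for many members, which does not show that a gene controls its own level. A transcript of the class subject to nonsense-mediated decay is annotated for 9 of the 11 SR protein genes (81.8%) and for 10 of the 20 hnRNP genes (50%), against 30.5% of the 10632 protein-coding genes with at least 10 counts. A retained-intron transcript is annotated for 22 of the 31 members (71.0%), against 60.8% of those genes. The members also have more annotated transcripts of any kind: 15 of 31 (48.4%) have at least 8, against 29.2% of those genes. The counts below add up all exons of a gene, so protein-coding transcripts and those subject to decay were not separated.

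The starts of 4 members are printed as examples and do not stand for the families. The same stretch of *Hnrnpm*, *Hnrnpdl*, *Hnrnph1* and *Hnrnph3* holds none of the motifs given below. The 4 printed are *Srsf5* and *Hnrnph2*, which were higher in Ortho-E, and *Srsf4* and *Hnrnpa3*, which were lower. Each line gives the 100 bases before the start site in RefSeq's GRCm38.p6, read along the gene from 5′ to 3′, with capitals for every match on either strand to the CCAAT box (CCAAT), the GC box (GGGCGG), the E-box (CACGTG), the core of many ETS factor sites (CCGGAAG), the palindrome known from housekeeping promoters (CTCGCGAG), the TATA box (TATAAA) or the GATA site (AGATAA). These motifs can overlap each other, as the last 2 matches of *Srsf5* do.
*Srsf5*, chr12:80945399-80945498, plus strand: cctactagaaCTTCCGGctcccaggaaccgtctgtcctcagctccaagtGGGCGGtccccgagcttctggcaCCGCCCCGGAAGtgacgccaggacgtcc
*Hnrnph2*, chrX:134601079-134601178, plus strand: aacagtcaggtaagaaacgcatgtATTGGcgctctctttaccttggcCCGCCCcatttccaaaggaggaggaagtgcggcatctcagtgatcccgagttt
*Srsf4*, chr4:131873537-131873636, plus strand: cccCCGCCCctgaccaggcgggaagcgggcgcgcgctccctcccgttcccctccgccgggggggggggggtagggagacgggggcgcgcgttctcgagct
*Hnrnpa3*, chr2:75659159-75659258, plus strand: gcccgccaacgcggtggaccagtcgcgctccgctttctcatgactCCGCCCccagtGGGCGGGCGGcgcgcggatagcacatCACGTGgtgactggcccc

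RefSeq promoters were found for 29 of the 31 members, all but *Hnrnpll* and *Hnrnpul2*. For 25 of them the bases after the start were found in an annotated transcript, but not for *Hnrnpa1*, *Hnrnpab*, *Hnrnpu* and *Srsf6*. The start used lay 1226 bases from the gene's start in the counts for *Hnrnpk*, 1402 for *Hnrnpm* and 2349 for *Hnrnpl*. In the 250 bases before the start, the members had a median GC content of 65.2% and a median of 23 CpG dinucleotides, against 60.0% and 16 over the 8589 genes with at least 10 counts and a promoter in the same table. A GC box (GGGCGG) stood in 79.3% of the members' windows and in 59.3% of all, and CCAAT in 51.7% and 37.0%. CCGGAAG was found in 20.7% of the members' windows and 15.3% of all, TATAAA in 10.3% and 6.03%, CACGTG in 6.90% and 8.46%, AGATAA in 6.90% and 5.95%, and CTCGCGAG in 3.45% and 1.78%. A GC box was present in 4 of 6 windows of members that were higher in Ortho-E and in 15 of 19 windows of members that were lower, and CCAAT in 2 of 6 and 10 of 19, numbers too small to compare. A match says only that the letters are there.

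The libraries held from 2670173 to 12451234 counts on genes. *Ypel4* itself checked the labels, with 490 to 716 CPM (counts scaled to a common library size with TMM factors, as all CPM below) in *Ypel4*+/+ Poly-E and 9.90 to 23.6 in *Ypel4*-/- Poly-E, and with 4429.5 to 5441 and 175 to 224 CPM in Ortho-E. Of the 12 erythroid markers checked, 11 were listed, and their summed level was 32931 to 39840 CPM in *Ypel4*+/+ Poly-E and 98670 to 109000 CPM in *Ypel4*+/+ Ortho-E. In the same groups the 5 platelet and megakaryocyte markers summed to 28.1 to 36.6 and 97.6 to 113 CPM, the 8 lymphocyte markers (*Cd3e* at 0 in all 16 libraries) to 11.2 to 16.4 and 18.8 to 24.7 CPM, the 10 neutrophil and monocyte markers to 2.61 to 3.59 and 5.92 to 20.8 CPM, and the 6 endothelial and stromal markers to 1.08 to 1.85 and 1.27 to 6.00 CPM. Scaled to library totals instead, the lymphocyte markers were lower in Ortho-E, at 12.4 to 16.4 against 17.3 to 25.6. The platelet markers stayed higher, at 64.0 to 75.5 against 43.3 to 53.1. The erythroid markers did too, at 63437 to 66079 against 51283 to 57705. The neutrophil and monocyte markers overlapped, at 3.59 to 12.9 against 4.06 to 5.38, as did the endothelial and stromal markers. Of the 3 platelet markers tested with edgeR below, only *Itga2b* was called higher (log2 2.25). Of the 11 erythroid markers 8 were higher and 2 lower (*Klf1* and *Gata1*). The part of such cells in the changes below was not tested. In *Ypel4*+/+ mice the 20 most abundant genes of a library made up 17.1% ± 0.971 (SD, n = 4) of its counts for Poly-E and 31.0% ± 1.47 for Ortho-E.

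Both families took a smaller share of the RNA in Ortho-E than in Poly-E. In *Ypel4*+/+ mice the 11 SR protein genes held 0.429%, 0.442%, 0.439% and 0.447% of the counts in Poly-E libraries 1 to 4 and 0.195%, 0.193%, 0.229% and 0.237% in Ortho-E. The 20 hnRNP genes held 0.933%, 1.02%, 1.06% and 1.08% in Poly-E, compared with 0.313%, 0.341%, 0.341% and 0.362% in Ortho-E. The groups did not overlap in either family. In *Ypel4*-/- mice the SR share went from 0.402% to 0.450% in Poly-E to 0.203% to 0.224% in Ortho-E, and the hnRNP share from 0.946% to 1.09% to 0.287% to 0.354%. On the log2 scale the mean SR share changed by -1.04 and the mean hnRNP share by -1.59 in *Ypel4*+/+ mice, where the median gene changed by -1.45 when scaled to library totals in the same way. In *Ypel4*-/- mice these values were -1.0 and -1.67, beside -1.47 for the median gene. In bulk RNA, fewer cells that express a gene and less of its RNA per cell cannot be told apart.

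The balance between the families and within the SR family shifted as well, and these ratios do not depend on how libraries are scaled. There were 0.431 ± 0.022 SR counts for each hnRNP count in *Ypel4*+/+ Poly-E (SD, n = 4, 0.413 to 0.459) and 0.630 ± 0.046 in Ortho-E (0.567 to 0.672). In *Ypel4*-/- mice the Poly-E ratio was 0.420 ± 0.0083 and the Ortho-E ratio 0.670 ± 0.035. *Srsf1* and *Srsf5* together made up 32.3%, 30.9%, 33.3% and 33.5% of the SR counts in the 4 *Ypel4*+/+ Poly-E libraries and 71.5%, 66.7%, 72.2% and 69.7% in the 4 Ortho-E libraries. The same pair made up 29.9% to 35.1% and 67.2% to 72.7% in *Ypel4*-/- mice. *Hnrnpm* went from 6.65% to 33.8% of the hnRNP counts in *Ypel4*+/+ mice and from 6.18% to 31.8% in *Ypel4*-/- mice.

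**Figure D1:**
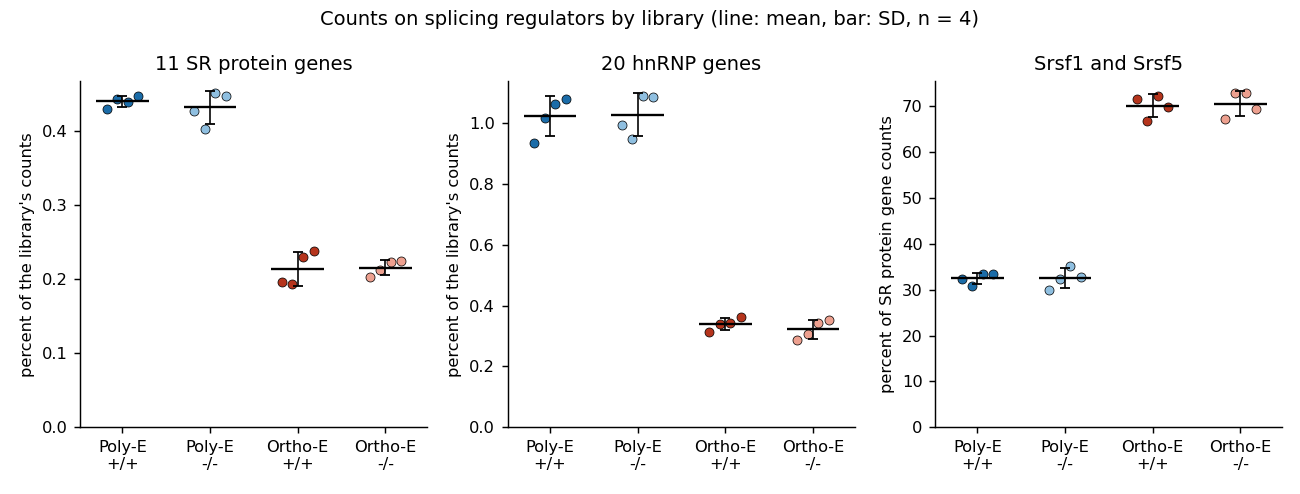
Percent of each library's counts on the 11 SR protein genes (left) and the 20 hnRNP genes (middle), and percent of the SR counts on *Srsf1* and *Srsf5* (right), by population and genotype. Points are libraries, lines are means and bars are SDs of 4 libraries, and every Ortho-E library lies below every Poly-E library in the first panels and above it in the last.

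Ortho-E was compared with Poly-E gene by gene in *Ypel4*+/+ mice, with the quasi-likelihood test of edgeR over all genes and Benjamini-Hochberg adjustment. Of the 31 members 27 passed an adjusted p of 0.05 (87.1%), 6 of them higher in Ortho-E and 21 lower. Over all 11747 genes tested 58.5% passed, 26.4% higher and 32.1% lower. Among the 7402 genes that pass the count filter filterByExpr 78.7% did, 36.4% higher and 42.3% lower. The median log2 fold change was -0.94 over the SR protein genes, -1.16 over the hnRNP genes and -0.19 over all genes. The 6 higher members were *Hnrnpm*, *Srsf5*, *Hnrnph2*, *Srsf1*, *Hnrnpc* and *Srsf12*, and the 4 that did not pass were *Srsf11*, *Hnrnpa0*, *Hnrnpa1* and *Hnrnpr*. The ranges of the 4 Poly-E and 4 Ortho-E libraries stood apart for the 27 members that passed and for none of the other 4. The share of all genes whose ranges stand apart is not given here, so this count does not set the members apart from other genes.

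Higher and lower here mean relative to TMM scaling, which takes most genes as unchanged. With scaling to library totals the median of all genes moved to -1.45. The members' directions then became 3 higher and 27 lower: *Srsf5* (log2 fold change 0.49), *Hnrnpm* (0.76) and *Srsf12* stayed higher, *Srsf1* (-0.39) and *Hnrnpc* (-0.53) became lower and *Hnrnph2* (-0.04) did not pass. Relative to the median of all genes, 9 members lay above and 22 below under TMM, DESeq2's size factors and library totals alike. A change of scaling moves every gene and the median by nearly the same amount, so this agreement was fixed in advance. Over all genes the split of calls went from 26.4% higher and 32.1% lower to 10.4% higher and 60.3% lower.

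**Figure D2:**
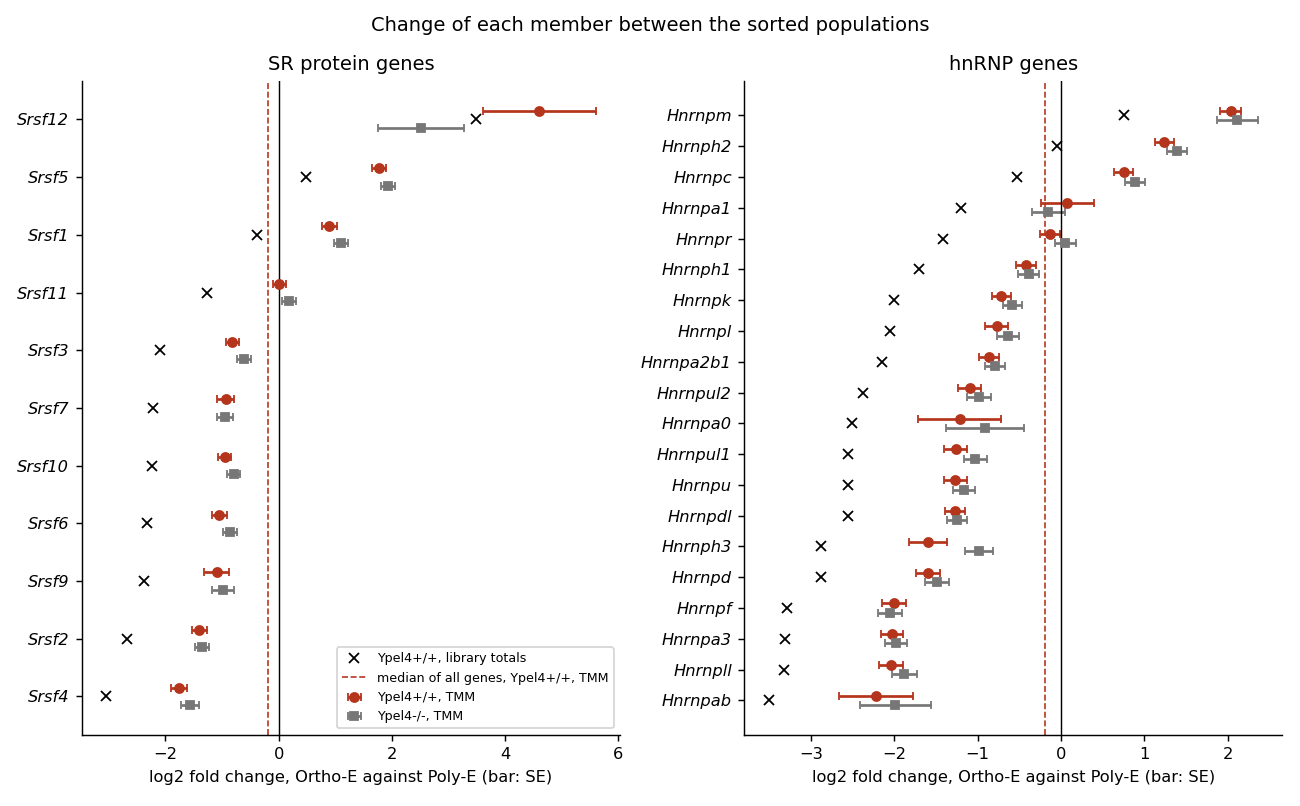
Log2 fold change of Ortho-E against Poly-E for each SR protein gene (left) and hnRNP gene (right). Circles with SE bars are *Ypel4*+/+ mice and squares *Ypel4*-/- mice with TMM scaling, crosses are *Ypel4*+/+ mice scaled to library totals, and the dashed line is the median of all genes at -0.19. *Hnrnpm*, *Srsf5*, *Hnrnph2*, *Srsf1*, *Hnrnpc* and *Srsf12* lie to the right of 0 in both genotypes with TMM, and the crosses of *Srsf1*, *Hnrnph2* and *Hnrnpc* lie to the left of it.

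Among the SR protein genes, *Srsf5* (chr12:80945504-80950507, plus strand) rose most of those with many counts. *Srsf5* encodes an SR protein closely related to those of *Srsf4* and *Srsf6*. In *Ypel4*+/+ mice its level was 474, 391, 426 and 418 CPM in the 4 Poly-E libraries and 1532, 1171, 1482 and 1499 CPM in the 4 Ortho-E libraries. Every Ortho-E library was above every Poly-E library, and Ortho-E replicate 2 was the lowest of its group. The fold change was 3.41 (log2 1.77 ± 0.13 SE, adjusted p = 2.31e-12, edgeR). Of the 75-base windows of the longest coding transcript of *Srsf5* 22.6% also occur in *Gm12966*, so its counts are less certain. *Srsf1* (chr11:88047373-88053755, plus strand), the founding SR protein, known for splice site choice and for promoting translation, had 481, 494, 549 and 543 CPM in Poly-E and 771, 794, 1003 and 1176 CPM in Ortho-E. The groups stood apart with more spread in Ortho-E, where replicates 3 and 4 were highest. The change was 1.86-fold (log2 0.89 ± 0.13 SE, adjusted p = 1.68e-06, edgeR), and it was -0.39 on the log2 scale with library totals.

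*Srsf3* (chr17:29032673-29043366, plus strand), the shortest SR protein and an adaptor for mRNA export, fell least among the 7 SR protein genes that were lower. It had 356, 362, 332 and 336 CPM in Poly-E and 181, 166, 197 and 222 CPM in Ortho-E. The groups were far apart, with a log2 change of -0.82 ± 0.12 SE (adjusted p = 1.41e-06, edgeR). Of the windows of *Srsf3* 25.2% also occur in other genes such as *Gm12355*. *Srsf10* (-0.95), known as a repressor when it loses its phosphates in mitosis and heat shock, *Srsf7* (-0.94), an export adaptor like *Srsf3*, and *Srsf6* (-1.05) fell by about as much on the log2 scale.

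The largest falls in the SR family were those of *Srsf4*, *Srsf2* and *Srsf9*. *Srsf4* (chr4:131873617-131901706, plus strand) had 76.7, 77.8, 96.2 and 87.3 CPM in Poly-E and 26.2, 24.6, 20.7 and 26.6 CPM in Ortho-E. That is 3.37-fold lower (log2 -1.75 ± 0.14 SE, adjusted p = 3.34e-11, edgeR), with no overlap. *Srsf4* is thus opposite in direction to its relative *Srsf5*, although 63.8% of the 75-base windows of its longest coding transcript also occur in *Gm12992*, which overlaps it, so its counts are less certain. *Srsf2* (chr11:116849901-116853094, minus strand), which binds exonic enhancers and is recurrently mutated in myelodysplastic syndromes, had 504, 457, 381 and 372 CPM in Poly-E and 179, 168, 126 and 162 CPM in Ortho-E. It was 2.64-fold lower (log2 -1.40 ± 0.13 SE, adjusted p = 8.66e-10, edgeR), with replicates 1 and 2 highest in both populations. Of its windows 32.9% are shared with the overlapping *Mettl23* and *Mfsd11*. *Srsf9* (chr5:115327177-115333080, plus strand), at the low end of the family, had 16.2, 20.5, 30.0 and 25.5 CPM in Poly-E and 6.76, 9.71, 10.7 and 14.2 CPM in Ortho-E. Its groups were also apart (log2 -1.09 ± 0.22 SE, adjusted p = 1.29e-04, edgeR).

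The remaining SR protein genes were *Srsf11* and *Srsf12*. *Srsf11* had 177 ± 9.07 CPM in Poly-E and 174 ± 16.9 CPM in Ortho-E (SD, n = 4). The ranges overlapped and the log2 change was 0.01, with a 95% interval of -0.22 to 0.24. *Srsf12* was near absence: 1 count in the 4 *Ypel4*+/+ Poly-E libraries together and 13 counts in the 4 Ortho-E libraries. Per scaled count the ratio was 42.6, with an exact 95% interval of 6.39 to 1809 that covers counting error only, so *Srsf12* adds little to the 6 higher calls.

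**Figure D3:**
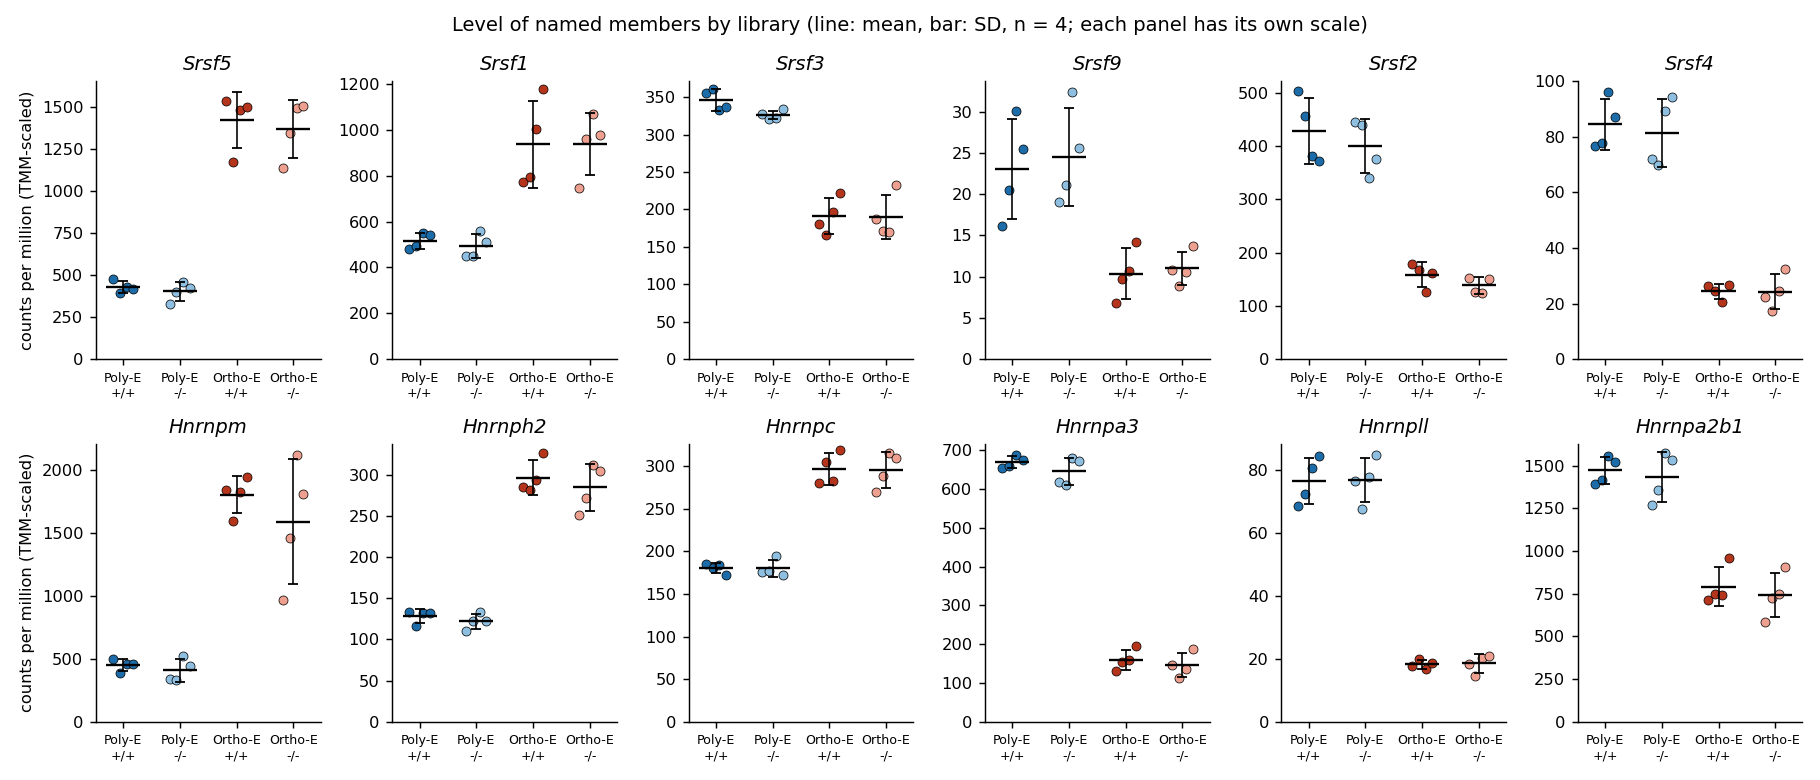
Level of 12 members in CPM (TMM-scaled, linear axes starting at 0 and scaled per panel) by population and genotype, with each library as a point, the mean as a line and the SD of 4 libraries as a bar. In *Srsf5*, *Srsf1*, *Hnrnpm*, *Hnrnph2* and *Hnrnpc* every Ortho-E point lies above every Poly-E point, in the other 7 below, and the genotypes overlap throughout.

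Among the hnRNP genes, *Hnrnpm* (chr17:33646233-33686860, minus strand) showed the largest rise. Its protein binds GU-rich RNA and regulates alternative exons. In *Ypel4*+/+ mice it had 496, 384, 455 and 460 CPM in Poly-E and 1842, 1593, 1820 and 1940 CPM in Ortho-E. The populations were far apart and replicate 2 was the lowest in both, and the change was 4.11-fold (log2 2.04 ± 0.12 SE, adjusted p = 1.24e-13, edgeR). Of its windows 28.4% are shared with *March2*, whose exons overlap it. *Hnrnph2* (chrX:134601179-134607060, plus strand), one of the G-tract binding hnRNP H and F proteins, had 134, 116, 133 and 132 CPM in Poly-E and 285, 281, 293 and 327 CPM in Ortho-E. It was 2.36-fold higher with tight groups (log2 1.24 ± 0.12 SE, adjusted p = 5.28e-10, edgeR). Of the windows of *Hnrnph2* 13.0% also occur in *Gm8775*.

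*Hnrnpc* (chr14:52073380-52104028, minus strand), which binds uridine tracts and packages nascent transcripts, had 185, 180, 184 and 172 CPM in Poly-E and 281, 304, 283 and 319 CPM in Ortho-E. The groups did not overlap and the change was 1.69-fold (log2 0.75 ± 0.11 SE, adjusted p = 1.85e-06, edgeR). *Hnrnph2* and *Hnrnpc* are the called hnRNP genes whose sign turned with library totals.

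The relatives of *Hnrnph2* went the other way. *Hnrnpf* had a mean of 326 CPM in Poly-E and 79.6 CPM in Ortho-E (4.01-fold lower, adjusted p = 4.22e-12, edgeR), although 61.7% of its windows also occur in other genes such as *Gm6430*. *Hnrnph3* fell from 33.2 to 10.4 CPM (log2 -1.60 ± 0.23 SE). *Hnrnph1* changed least of all members that passed (log2 -0.42 ± 0.12 SE, adjusted p = 0.00384, edgeR), and it did not pass without Poly-E replicate 3 (adjusted p = 0.0995) or replicate 4 (0.0930), nor with filterByExpr (0.0595).

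The hnRNP A/B group, the best known repressors of exons, was mostly lower. *Hnrnpa3* (chr2:75659261-75669407, plus strand) had 653, 659, 688 and 674 CPM in Poly-E and 131, 155, 158 and 195 CPM in Ortho-E. That is 4.08-fold lower (log2 -2.03 ± 0.13 SE, adjusted p = 2.57e-13, edgeR), and no library came near the other population. Of the windows of *Hnrnpa3* 27.9% also occur in other genes such as *Gm5641*. *Hnrnpa2b1* (chr6:51460434-51469894, minus strand) had 1393, 1416, 1558 and 1524 CPM in Poly-E and 715, 751, 742 and 959 CPM in Ortho-E. Its fall was smaller (log2 -0.86 ± 0.12 SE, adjusted p = 7.17e-07, edgeR), and Ortho-E replicate 4 stood above the other Ortho-E libraries. *Hnrnpab* (chr11:51600100-51606847, minus strand) had 186, 238, 456 and 397 CPM in Poly-E and 40.6, 40.5, 83.6 and 97.7 CPM in Ortho-E. Its groups stood apart in spite of a wide spread inside each, with a log2 change of -2.22 ± 0.44 SE (adjusted p = 0.00481, edgeR).

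*Hnrnpa1* (chr15:103240432-103244955, plus strand), the prototype of the group, had 470, 490, 264 and 286 CPM in Poly-E and 494, 512, 258 and 297 CPM in Ortho-E. The populations overlapped fully, and the log2 change was 0.08 with a 95% interval of -0.54 to 0.70. With replicate numbers blocked the change was 0.074 ± 0.088 SE (adjusted p = 0.482, edgeR). *Hnrnpa0* had 65.4, 73.6, 189 and 164 CPM in Poly-E and 33.0, 29.7, 61.6 and 77.4 CPM in Ortho-E. Each Ortho-E library was below the Poly-E library of the same number, but the groups overlapped and the gene did not pass (log2 -1.22 ± 0.50 SE, adjusted p = 0.0798, edgeR). It did in edgeR once replicate numbers were blocked (log2 -1.22 ± 0.11 SE, adjusted p = 6.46e-29), and it also passed with the term for replicates 1 and 2 against 3 and 4 (6.26e-23), with library totals (0.00469), in the fit of all 16 libraries (0.0490) and in DESeq2 without the block (0.0313).

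The spread of many members follows the replicate number. In 7 of the 31 members, *Hnrnpa0*, *Hnrnpab*, *Hnrnpd*, *Hnrnpul1*, *Hnrnpul2*, *Srsf1* and *Srsf11*, replicates 3 and 4 were above replicates 1 and 2 in all 4 groups without overlap. The share of all genes with this order is not given here. The split was not particular to the members. Over 8083 genes, deviations from group means in *Ypel4*+/+ Ortho-E replicate 1 and Poly-E replicate 3 had r = -0.283. For Ortho-E replicate 3 and Poly-E replicate 4 r was 0.235. In *Ypel4*-/- mice r was -0.239 for Ortho-E replicate 1 and Poly-E replicate 3, but only 0.0459 for Ortho-E replicate 3 and Poly-E replicate 4. There Ortho-E replicate 2 broke the pattern, with r = 0.039 against Poly-E replicate 3 and -0.134 against Poly-E replicate 1. These pairs are examples. *Hnrnpa1*, *Hnrnpab* and *Hnrnpa0* are described here as examples chosen after their values were seen. In the Poly-E libraries of both genotypes together, replicates 1 and 2 had 470 to 490 CPM of *Hnrnpa1* and replicates 3 and 4 had 264 to 286. *Hnrnpab* went the other way with 186 to 238 CPM in replicates 1 and 2 and 375 to 456 in replicates 3 and 4, and so did *Hnrnpa0* with 65.4 to 74.1 and 164 to 189. In Ortho-E the same order was seen for *Hnrnpab* and *Hnrnpa0* in both genotypes and for *Hnrnpa1* in *Ypel4*+/+ only, since *Ypel4*-/- Ortho-E replicate 2 had 282 CPM against 292 in replicate 4. The labels name no batch, and what separates replicates 1 and 2 from 3 and 4 was not tested. Of the 75-base windows 44.4% in *Hnrnpa1* also occur in other genes such as *Gm10052*, 25.9% in *Hnrnpab*, whose exons overlap those of *Phykpl*, and 0% in *Hnrnpa0*.

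**Figure D4:**
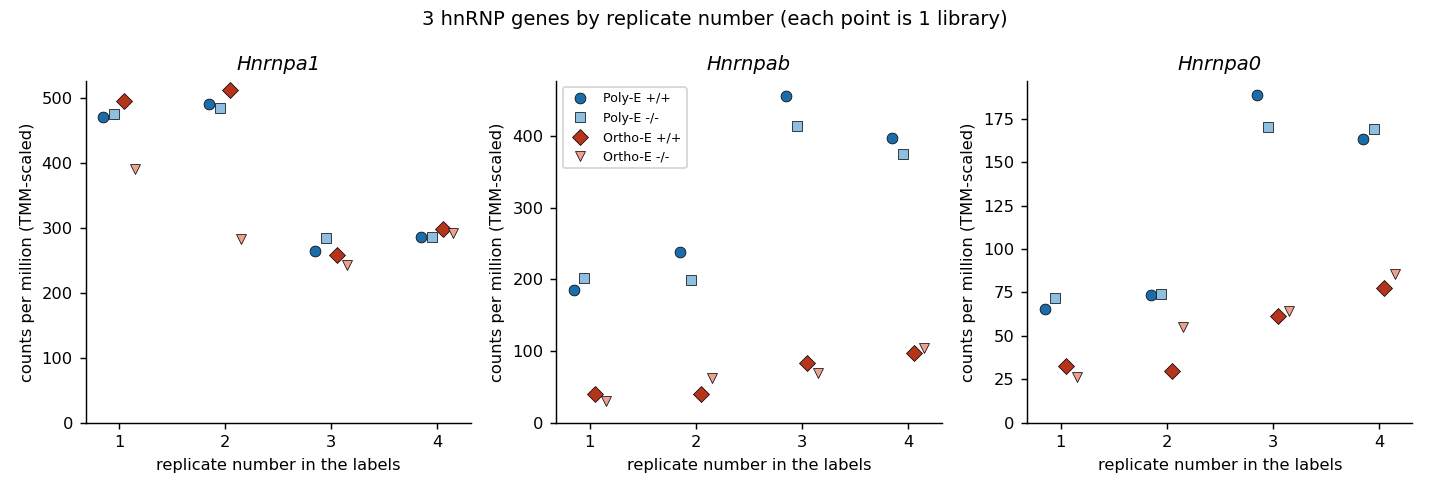
Level of *Hnrnpa1*, *Hnrnpab* and *Hnrnpa0* in CPM (TMM-scaled) by replicate number, with 1 point per library, blue for Poly-E and red for Ortho-E, dark for *Ypel4*+/+ and light for *Ypel4*-/-. In Poly-E replicates 1 and 2 lie above replicates 3 and 4 for *Hnrnpa1* and below them for the other genes.

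The other hnRNP genes fell, apart from *Hnrnpr*. *Hnrnpll* (chr17:80029487-80062334, minus strand), which directs exon skipping in *Ptprc* of lymphocytes, had 68.6, 72.6, 80.7 and 84.4 CPM in Poly-E and 17.7, 19.99, 16.7 and 18.7 CPM in Ortho-E. This was 4.12-fold lower with no overlap (log2 -2.04 ± 0.14 SE, adjusted p = 2.34e-12, edgeR). *Hnrnpl*, its paralog that binds CA repeats, fell less, from 129 to 74.0 CPM (log2 -0.77 ± 0.14 SE).

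*Hnrnpd*, whose protein AUF1 binds AU-rich elements and speeds decay of the mRNA, fell from 248 to 79.6 CPM (log2 -1.60 ± 0.15 SE), and its relative *Hnrnpdl* from 248 to 100.5 CPM (log2 -1.27 ± 0.12 SE). *Hnrnpu*, which binds the nuclear scaffold and chromatin, had a log2 change of -1.27 ± 0.14 SE, and *Hnrnpul1* and *Hnrnpul2* of -1.26 and -1.10. *Hnrnpk*, a KH domain protein known to hold a lipoxygenase mRNA silent until the reticulocyte stage, fell from 597 to 355 CPM (log2 -0.72 ± 0.11 SE). Of its windows 30.7% also occur in other genes such as *Gm7964*. *Hnrnpr* overlapped between the populations, with 167 ± 12.7 CPM and 149 ± 14.5 CPM (SD, n = 4) and a 95% interval of -0.37 to 0.10 for its log2 change.

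Compared per length of exons, the order of the members changed between the populations. In *Ypel4*+/+ Poly-E the order in the SR family was *Srsf2* with 145 ± 21.2 CPM per kilobase (SD, n = 4), *Srsf5* with 107 ± 8.63, *Srsf1* with 90.5 ± 6.02, then *Srsf3*, *Srsf10* and *Srsf6* with 67.8 ± 2.79, 66.8 ± 1.29 and 66.7 ± 1.74, whose ranges overlap. *Srsf7* followed with 49.9 ± 6.45, *Srsf4* with 23.7 ± 2.57, *Srsf11* with 21.0 ± 1.07 and *Srsf9* with 17.0 ± 4.42, where *Srsf11* overlapped both *Srsf4* and *Srsf9*, and *Srsf12* was last with a mean of 0.00526. In Ortho-E *Srsf5* led with 356 ± 42.1 CPM per kilobase, 48.3% ± 3.96 of the family's summed level, ahead of *Srsf1* with 164 ± 33.4 and *Srsf2* with 53.7 ± 7.78, and these 3 ranges stood apart. *Srsf2* overlapped *Srsf3* (37.5 ± 4.70), the next in order. *Srsf4* dropped to 6.88 ± 0.76, a range that overlapped that of *Srsf9*.

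In the hnRNP family *Hnrnpa2b1* led in Poly-E with 360 ± 19.7 CPM per kilobase (SD, n = 4), followed by *Hnrnpa1* with 197 ± 61.9, whose range overlapped that of *Hnrnpab* (115 ± 46), and by *Hnrnpa3* with 124 ± 2.89. *Hnrnpll* and *Hnrnpr* were lowest with 6.56 ± 0.62 and 7.53 ± 0.57, in ranges that overlapped. In Ortho-E *Hnrnpm* stood first with 383 ± 31.3 CPM per kilobase, from the eighth place in Poly-E (95.5 ± 9.97). It was followed by *Hnrnpa1* (204 ± 68.5) and *Hnrnpa2b1* (194 ± 27.5), which overlapped each other, and then by *Hnrnpc* (103 ± 6.37) and *Hnrnph2* (67.9 ± 4.76), while *Hnrnpa3* was at 29.6 ± 4.91. The length is that of all exons of a gene joined, so a gene with long exons that are rarely used can be set too low.

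**Figure D5:**
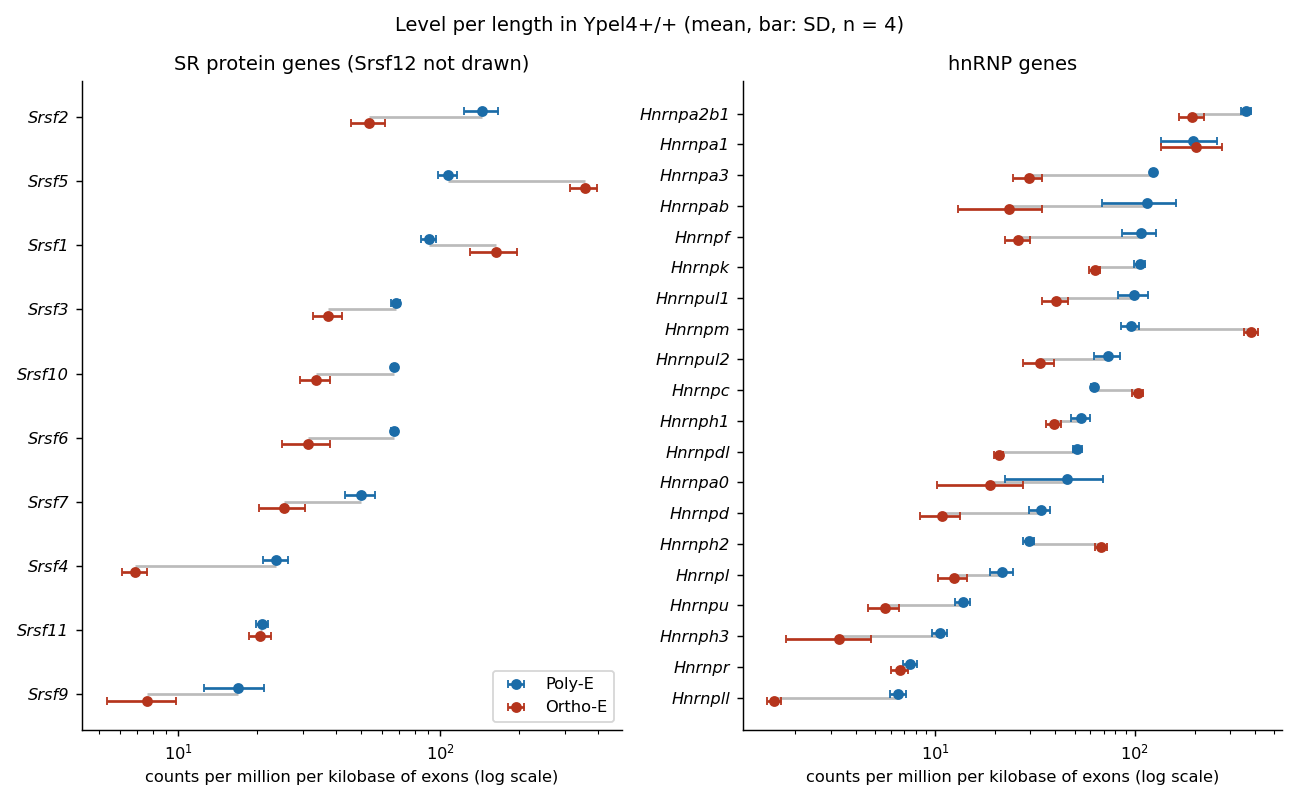
Level per length in *Ypel4*+/+ mice in CPM per kilobase of exons on a log axis, with the mean and SD of 4 Poly-E (blue) and 4 Ortho-E (red) libraries and genes in the order of Poly-E, *Srsf12* not drawn. *Srsf5* rises from 107 to 356 and *Hnrnpm* from 95.5 to 383, while *Srsf2*, first in Poly-E at 145, falls to 53.7.

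The *Ypel4*-/- mice gave a second comparison of the populations on libraries that the first did not use. Again 27 of 31 members passed, 6 higher and 21 lower (edgeR, adjusted p of 0.05), while over the 11973 genes tested 61% did, 29.5% higher and 31.5% lower. Among the 7582 genes that pass filterByExpr 79.6% did, 37.9% higher and 41.7% lower. All 31 members had the same call as in *Ypel4*+/+ mice, and the log2 fold changes of the 31 members had a Pearson's r of 0.965 and a Spearman's rho of 0.987 between the genotypes, which is across genes, and genes are not independent replicates. The medians were -0.79 for SR protein genes, -0.95 for hnRNP genes and -0.09 for all genes.

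*Srsf5* had 328, 399, 460 and 425 CPM in *Ypel4*-/- Poly-E and 1134, 1342, 1494 and 1503 CPM in Ortho-E (log2 1.93 ± 0.13 SE, adjusted p = 4.10e-15, edgeR), with replicate 1 lowest in both. *Hnrnpm* had 335, 329, 522 and 443 CPM and 962, 1458, 2115 and 1810 CPM, with replicate 1 lowest in Ortho-E and no overlap (log2 2.12 ± 0.25 SE, adjusted p = 3.68e-05, edgeR). *Hnrnph2* (1.39), *Srsf1* (1.10) and *Hnrnpc* (0.89) were the other higher members with many counts on the log2 scale. *Srsf12* had 7 counts in Poly-E and 14 in Ortho-E, a ratio per scaled count of 5.81 with an exact 95% interval of 2.20 to 17.0, and its groups overlapped.

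The lowest log2 fold changes in *Ypel4*-/- mice were those of *Hnrnpf* (-2.05), *Hnrnpab* (-1.99), *Hnrnpa3* (-1.98), *Hnrnpll* (-1.88) and *Srsf4* (-1.57). *Hnrnpa0* did not pass (adjusted p = 0.138, edgeR), but did with the replicate block (log2 -0.90 ± 0.11 SE, adjusted p = 4.79e-16), with the term for replicates 1 and 2 against 3 and 4 (adjusted p = 5.89e-08) and with library totals (adjusted p = 0.00314). *Hnrnph1* was lost without Poly-E replicate 4 (adjusted p = 0.0512, edgeR) and with filterByExpr (0.0674). *Srsf11* was called higher with filterByExpr (log2 0.32 ± 0.12 SE, adjusted p = 0.0189, edgeR). With library totals the calls became 2 higher (*Hnrnpm* at 0.70 and *Srsf5* at 0.51) and 27 lower.

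Loss of *Ypel4* was tested within each population. In Poly-E none of the 30 members tested differed between genotypes (edgeR, adjusted p of 0.05), with 1 of 12395 genes called over all (0.00807%). Log2 fold changes of *Ypel4*-/- against *Ypel4*+/+ ran from -0.14 to 0.07, with a median of -0.04 and SEs from 0.094 to 0.49, and no member had an unadjusted p under 0.05. The lowest was that of *Srsf10* (unadjusted p = 0.305, adjusted p = 1.00, edgeR), with 459, 480, 468 and 464 CPM in *Ypel4*+/+ and 413, 402, 449 and 475 CPM in *Ypel4*-/- mice. The values overlapped, and the 95% interval of the log2 change was -0.29 to 0.09.

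In Ortho-E none of the 31 members differed either (edgeR), with 3 of 10521 genes called (0.0285%). Changes ran from -0.35 to 0.52 on the log2 scale, and 1 member had an unadjusted p under 0.05. That was *Hnrnph3*, with 3.8, 11.4, 11.3 and 14.9 CPM in *Ypel4*+/+ and 16.2, 12.2, 16.8 and 15.2 CPM in *Ypel4*-/- mice (log2 0.52 ± 0.25 SE, unadjusted p = 0.0476, adjusted p = 0.995, edgeR). *Ypel4*+/+ replicate 1, with 9 counts, lies far below the rest, and without it the log2 change was 0.27 (unadjusted p = 0.211, adjusted p = 0.998, edgeR). The 95% intervals were -0.24 to 0.16 for *Srsf5*, -0.20 to 0.25 for *Srsf1* and -0.53 to 0.19 for *Hnrnpm*, so larger changes of these leading genes were outside them. DESeq2 also called no member in either population.

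Whether the change from Poly-E to Ortho-E differed between genotypes was tested with the interaction in all 16 libraries. No member passed (edgeR, lowest unadjusted p 0.0824 for *Srsf12* and 0.0988 for *Hnrnph3*), and 0% of the 13318 genes tested did, with 363 genes at an unadjusted p under 0.05. DESeq2 called 1 gene over all and no member. The interaction was 0.03 for *Srsf5* (95% interval -0.31 to 0.37), 0.07 for *Srsf1* (-0.29 to 0.43) and -0.04 for *Hnrnpm* (-0.56 to 0.47).

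Other splicing genes were counted in 6 lists, to be read beside the 32.1% of all genes that were lower and the 26.4% that were higher in *Ypel4*+/+ Ortho-E. Among genes that pass filterByExpr these shares were 42.3% and 36.4%. Beside the highest and lowest of each list the genes named here were chosen after their values were seen. Of 22 tested genes of the U1, U2, U4 and U5 particles and the Sm ring, 18 were lower and none higher in *Ypel4*+/+ Ortho-E (median log2 -1.17, edgeR), from *Usp39* at -2.32 to *Prpf6* at 0.33, which did not pass. Of 17 genes of the branch site and 3′ splice site factors, 13 were lower and 3 higher (median -1.29), from *Sf3a3* at -2.08 to *Zrsr1* at 3.24, a relative of *U2af1*. *Sf3b1*, which recognizes the branch site, rose from 301 to 514 CPM (log2 0.81). Of 29 other splicing regulators, 17 were lower and 7 higher (median -0.82). *Ptbp1*, the hnRNP I repressor, was at -2.21, *Rbm38*, known from late erythroid splicing, rose from 811 to 3274.5 CPM (log2 2.05), and *Mbnl2* had the largest rise at 2.56. The low end was *Pcbp3* at -3.97, which did not pass and was near 0 CPM.

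Genes of the kinases and importers listed beside the SR proteins moved in both directions. Of 11 kinases and importers, 6 were higher and 3 lower (median log2 0.36). *Clk1*, a kinase of the SR tail, went from 231 to 1619 CPM (log2 2.85), *Clk4* from 106 to 207 CPM (1.00) and *Tnpo1*, an importin, from 65.9 to 339 CPM (2.40), while *Srpk1* (-1.79) and *Tnpo3* (-1.40), which carries phosphorylated SR proteins into the nucleus, were lower. Of 21 SR-related genes, 11 were lower and 5 higher (median -0.59), from *Srrm1* at -1.88 to *Acin1* at 1.45. Of 15 genes of the exon junction complex and nonsense-mediated decay, 9 were lower and 1 higher (median -0.78), from *Magohb* at -2.97 to *Smg6*, the endonuclease of decay, at 2.41.

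In *Ypel4*-/- mice, where 31.5% of all genes were lower and 29.5% higher, the lists gave, in the order small nuclear ribonucleoproteins, branch and 3′ splice site factors, other regulators, kinases and importers, SR-related genes and decay, 18 lower and 1 higher of 22, 12 lower and 3 higher of 17, 17 lower and 7 higher of 28, 3 lower and 7 higher of 11, 11 lower and 5 higher of 21, and 9 lower and 4 higher of 15. Among all genes that pass filterByExpr in *Ypel4*-/- mice 41.7% were lower and 37.9% higher. No gene of these lists was called between genotypes in either population or in the interaction. The directions of these lists rest on TMM in the same way as those of the members.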

How the data were processed

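The authors sequenced unstranded TruSeq libraries of 16 sorted erythroblast samples. Per the file headers, they made the deposited counts with featureCounts 1.6.4. It adds read pairs over all exons of a gene in a mouse annotation (GRCm38) without strand and leaves out reads that fit several genes. Transcript classes and shared windows were taken from GENCODE. There some members, among them *Hnrnpa1*, *Hnrnpa2b1*, *Hnrnpc* and *Srsf3*, have other gene bounds than in the counts. Totals ran from 2670173 to 12451234. Groups follow the labels. Genes that reached 10 counts over the libraries of a fit were tested with edgeR 4.0.16 (R 4.3.3, quasi-likelihood, TMM, Benjamini-Hochberg over all genes), 8 libraries per fit and 16 for the interaction, with DESeq2 1.42.0 as an alternative, and the code was tested on simulated data. Alternatives were other scalings and filters, a fit of all 16 libraries, globin genes left out, the replicate number as a block, a term for replicates 1 and 2 against 3 and 4, and each library left out. P-values measure the spread between libraries, and counting intervals cover counting error only.

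Same-numbered Poly-E and Ortho-E libraries deviated together in *Ypel4*+/+ (r = 0.200 to 0.341 over 8083 genes) and, for all numbers but replicate 2 (0.0527), in *Ypel4*-/- mice (0.200 to 0.296). Different numbers within replicates 1 and 2 or within 3 and 4 gave 0.126 to 0.258 in *Ypel4*+/+ and -0.134 to 0.137 in *Ypel4*-/- mice. Same-numbered libraries of opposite genotypes, which are different mice, gave 0.150 to 0.438 in Poly-E and -0.0498 to 0.163 in Ortho-E. The values therefore cannot tell whether same-numbered Poly-E and Ortho-E libraries came from 1 mouse, which the sources used here do not give.

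Members and lists were chosen with earlier results of these data known. Values of every library are given for the 3 highest and 3 lowest fold changes of each family among called members with at least 100 counts in *Ypel4*+/+, the 2 members of each family with the highest level per length in *Ypel4*+/+ Poly-E and the lowest p of each genotype comparison, and other members named with all values were chosen after their values were seen.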

Additional observations from a re-analysis of the deposited data

Results flagged for a closer look

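Over 124 sets of 4 libraries for the members and 8 for the shares of both families, 7 sets, all of members, held a library that stood farther from the nearest other than Dixon's 95% limit for 4 values, and chance gives about 5% of sets. *Hnrnpa2b1* had 959 CPM in *Ypel4*+/+ Ortho-E replicate 4, against 715 to 751 in the others. *Srsf5* had 1171 CPM in *Ypel4*+/+ Ortho-E replicate 2, against 1482 to 1532. *Hnrnph2* had 116 CPM and *Hnrnpu* 139 CPM in *Ypel4*+/+ Poly-E replicate 2, against 132 to 134 and 116 to 119.7. *Hnrnpd* had 102 CPM in *Ypel4*-/- Ortho-E replicate 4, against 66.1 to 69.4. *Srsf12* had 0.0662 CPM, which is 1 count, in *Ypel4*+/+ Poly-E replicate 3 and 0 in the others, and 0.405 CPM in *Ypel4*-/- Poly-E replicate 2 against 0.138 to 0.154. The cause of these values was not tested.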

How the results depend on the processing

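Scaling to library totals changed the members most. Calls higher in Ortho-E went from 6 to 3 in *Ypel4*+/+ and to 2 in *Ypel4*-/- mice, and the log2 fold change turned in *Ypel4*+/+ mice for *Hnrnpa1* (-1.20), *Hnrnpc* (-0.53), *Hnrnph2* (-0.043), *Srsf1* (-0.39) and *Srsf11* (-1.27) and in *Ypel4*-/- mice for *Hnrnpc* (-0.53), *Hnrnph2* (-0.026), *Hnrnpr* (-1.37), *Srsf1* (-0.33) and *Srsf11* (-1.24). Fold changes near 0 also turned for *Hnrnpr* in *Ypel4*+/+ mice with DESeq2 size factors (0.0009) and filterByExpr (0.0485), for *Srsf11* in *Ypel4*+/+ mice with no filter (-0.0378) and the fit of all 16 libraries (-0.0233), and for *Hnrnpr* in *Ypel4*-/- mice under the same settings (-0.0193 and -0.1119). With single libraries left out, *Ypel4*+/+ values ran from -0.0687 to 0.3389 for *Hnrnpa1*, from -0.1754 to 0.02 for *Hnrnpr* and from -0.0425 to 0.1472 for *Srsf11*, and *Ypel4*-/- values from -0.0486 to 0.1176 for *Hnrnpr*. With globin genes left out of the totals, by construction the SR shares were larger, at 0.466% and 0.458% in Poly-E of *Ypel4*+/+ and *Ypel4*-/- mice, with 0.244% and 0.243% for Ortho-E, and the hnRNP shares in Ortho-E were 0.388% and 0.364%. Otherwise the cause was not tested. With the replicate number as a block 28 members passed in each genotype, *Hnrnpa0* being added, and no other member's call changed. No member was called between genotypes under any alternative. *Srsf12* and *Hnrnph3* are limited by counts.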
